A study of Mus musculus with 17 samples.

Results

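Frizzled proteins are the cell-surface receptors for Wnt ligands, and the mouse genome encodes 10 of them, Fzd1 to Fzd10. The members were taken by symbol, and all 10 were found among the 39179 genes of the inducible tumour model, while 9 were found among the 13905 genes of the other genotypes. Fzd9 is not listed in the latter table, from which genes of low value had been removed: the lowest mean of any listed gene there was 15.6. Its level in those groups is therefore unknown, and not zero.

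Messenger RNA was measured by RNA sequencing in frozen prostate or prostate tumours of C57BL/6 mice. Wild-type prostate (n = 3) came from mice of 12 months. The first tumour group, here called Ctnnb1 (n = 3, about 12 months), carried Ctnnb1pc(ex3)delta/+, 1 allele of the β-catenin gene Ctnnb1 without exon 3, which yields a β-catenin that escapes degradation. The group called combined (n = 3, about 6 to 8 months) carried the same Ctnnb1 allele together with an additional engineered change. The inducible model carried a Ctnnb1 (ex3)delta/+ allele made with CreERT2, with an additional engineered change, and its tumours were taken at about 15 months after mock treatment (n = 2) or androgen deprivation (ADT, n = 3). CreERT2 is a Cre recombinase that tamoxifen switches on. Age and genotype cannot be told apart in the combined group, and every inducible tumour, mock included, carries the activated β-catenin. The labels give no route or length of ADT and do not say that each library came from a separate mouse, so p-values measure only the spread between these samples.

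A Frizzled receptor crosses the membrane in several helices and binds Wnt through a cysteine-rich domain outside the cell. With the co-receptors Lrp5 or Lrp6 it recruits Dishevelled, which stops the destruction of β-catenin, and with other partners it steers planar polarity and cell movement. The activated allele acts below the receptors. Receptor abundance at the surface is set by the ubiquitin ligases Rnf43 and Znrf3, themselves targets of β-catenin, which R-spondins and Lgr receptors restrain. By sequence the family splits into Fzd1, Fzd2 and Fzd7, then Fzd5 and Fzd8, then Fzd4, Fzd9 and Fzd10, then Fzd3 and Fzd6. In the prostate, Wnt signalling shapes budding during development and takes part in growth under low androgen.

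The values are gene counts that the authors scaled for library size and rounded to whole numbers, here called scaled counts. Their totals over the genes kept were 37222233 to 38995268 in wild type, 26428684 to 27522308 in the tumours of the genotype table, and 28450083 to 30745082 in the inducible model. Of the whole numbers from 1 to 200, between 19.0% and 23.0% were taken by no gene in the wild-type libraries and 0.0% in the Ctnnb1 and combined libraries. A wild-type value thus stands for fewer reads than the same value in a tumour of that table. The Ctnnb1 transcript had 18320 to 18850 scaled counts in wild type, 25993 to 26930 in Ctnnb1 tumours, 27677 to 32871 in combined tumours, 30608 and 40205 in mock and 64204 to 76649 in ADT. The epithelial genes Krt8, Krt18, Epcam and Cdh1 were well above 0 in every library, the lowest of their values being 1947 for Epcam in ADT library 3.

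The gene starts of 3 members are shown because the results below turn on them: Fzd5 was called lower in both tumour groups, and of the close relatives Fzd1 and Fzd7, Fzd1 was called lower in Ctnnb1 tumours and Fzd7 in combined tumours, with the deposited scaling. Each line holds the 250 bases before the RefSeq start on GRCm38.p6, read 5′ to 3′ on the gene's strand, from chr1:64737751-64738000 (minus strand) for Fzd5, chr5:4758217-4758466 (minus strand) for Fzd1 and chr1:59481897-59482146 (plus strand) for Fzd7. Capitals mark GC boxes (GGGCGG or its complement CCGCCC) and TCF/LEF heptamers (CTTTG followed by 2 letters that are each A or T, both strands), and overlapping matches run together.
Fzd5: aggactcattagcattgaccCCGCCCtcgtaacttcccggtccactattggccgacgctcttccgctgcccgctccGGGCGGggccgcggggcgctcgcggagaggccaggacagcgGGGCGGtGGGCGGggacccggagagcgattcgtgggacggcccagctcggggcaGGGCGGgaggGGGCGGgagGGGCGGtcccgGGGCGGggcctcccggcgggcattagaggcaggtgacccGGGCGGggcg
Fzd1: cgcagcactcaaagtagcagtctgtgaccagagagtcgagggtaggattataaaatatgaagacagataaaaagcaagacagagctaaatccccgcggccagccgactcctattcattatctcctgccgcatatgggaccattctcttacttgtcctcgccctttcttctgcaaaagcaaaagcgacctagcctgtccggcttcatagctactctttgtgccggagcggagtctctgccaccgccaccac
Fzd7: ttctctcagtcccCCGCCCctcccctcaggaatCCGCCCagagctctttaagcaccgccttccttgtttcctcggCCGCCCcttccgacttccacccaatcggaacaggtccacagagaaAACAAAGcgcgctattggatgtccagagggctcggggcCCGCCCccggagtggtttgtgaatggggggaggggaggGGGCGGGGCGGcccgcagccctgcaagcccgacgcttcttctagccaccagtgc
The Fzd5 window was 76.4% G or C, that of Fzd7 65.2% and that of Fzd1 51.2%, beside a median of 52.4% over 32536 mouse windows of that length. The Fzd5 window held 9 GC boxes, the Fzd7 window 6 and the Fzd1 window 0, and 33.0% of all windows held at least 1. A TCF/LEF heptamer was found only in the Fzd7 window among the 6 members whose window was examined (Fzd1, Fzd4, Fzd5, Fzd7, Fzd9 and Fzd10), 130 bases before the start. The windows of Fzd2, Fzd3, Fzd6 and Fzd8 were not examined. Of all windows, 14.9% held 1 or more. These matches describe letters in a window, not bound sites.

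In wild-type prostate, Fzd1 was the most abundant member per length. Its level was 397 ± 36.2 scaled counts per kilobase of exon (SD, n = 3), followed by Fzd7 at 294 ± 7.19 and Fzd6 at 275 ± 17.2, whose ranges overlapped each other. Fzd5 at 163 ± 9.25 and Fzd2 at 141 ± 7.14 came next. Fzd4 at 50.3 ± 11.8 and Fzd8 at 49.8 ± 4.49 overlapped each other, as did Fzd3 at 25.4 ± 1.17 and Fzd10 at 22.6 ± 5.68. The 9 genes summed to 1417 ± 25.9 per kilobase, of which Fzd1 made up 28.0%, Fzd7 20.7% and Fzd6 19.4%.

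The order differed in the tumours. In Ctnnb1 tumours Fzd6 at 374 ± 25.3 and Fzd7 at 321 ± 25.7 per kilobase led with overlapping ranges, ahead of Fzd1 at 189 ± 43.7, and the family sum was 1193 ± 97.3. In combined tumours Fzd1 averaged 670 ± 349 per kilobase and its range overlapped that of Fzd6 at 356 ± 42.1, with Fzd7 at 221 ± 23.5. The family sum there was 1674 ± 481, the widest spread of the 3 genotype groups. Totals over all genes kept were higher in wild type than in these tumours. Family sums of tumours and wild type thus depend on the scaling, and they were not compared under equal totals. In the inducible model, which was scaled apart, Fzd1 at 789 ± 309 and Fzd6 at 502 ± 139 led in mock tumours (n = 2).

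**Figure D1:**
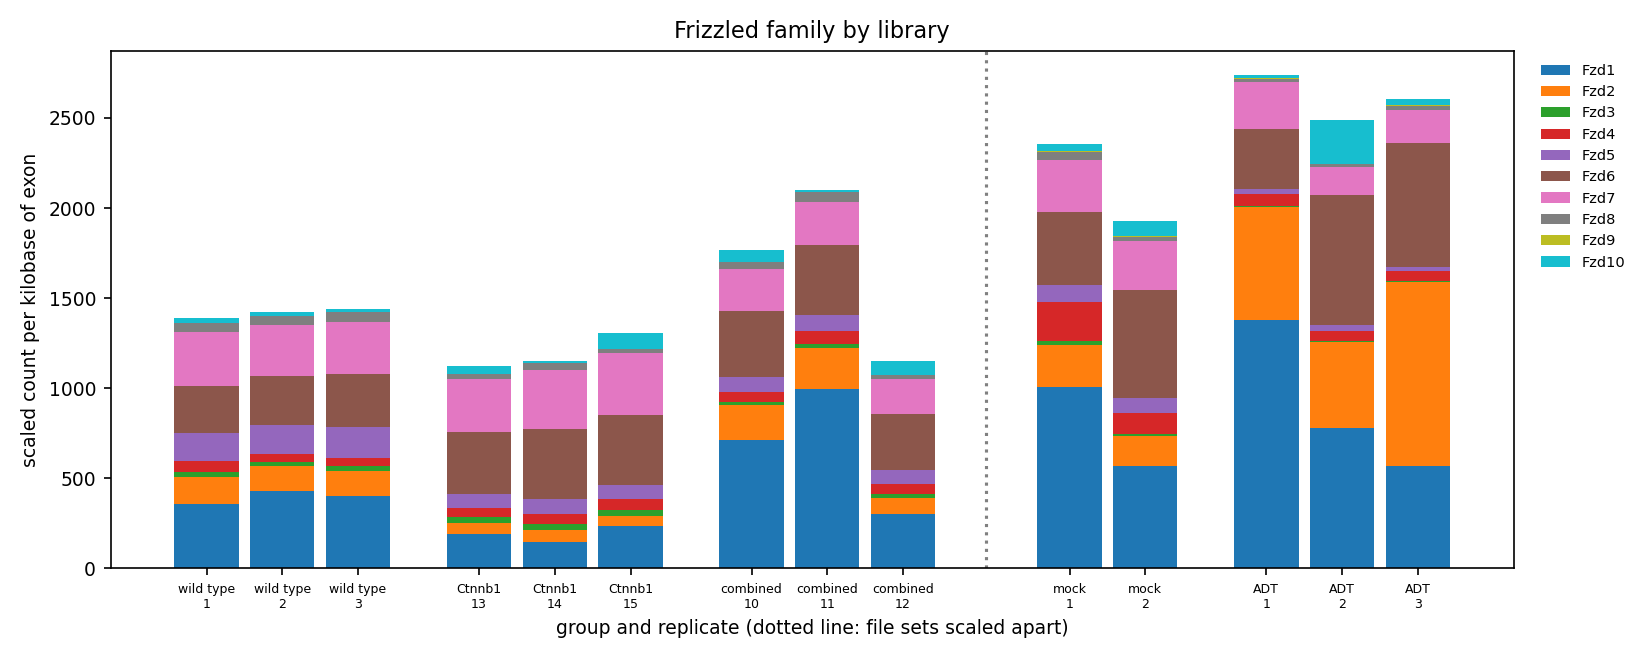
Stacked bars give each Frizzled gene's scaled count per kilobase of exon in each library, by group and replicate; heights left and right of the dotted line are on separately scaled sets. Fzd1 (blue) was the widest band in wild type, narrower in Ctnnb1 tumours, and in combined tumours wider in libraries 10 and 11 than in 12. Fzd2 (orange) was wide in all 3 ADT libraries.

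Setting Ctnnb1 tumours against wild type asks which receptors differ when β-catenin is activated below them. Fzd5, Fzd2 and Fzd1 were lower and Fzd6 was higher, so 4 of 9 listed members were called at an adjusted p under 0.05 in limma. Of all 13905 genes, 58.5% were called (28.9% higher and 29.6% lower), so the members' share was not above the background. In 6 of the 9, 2 higher and 4 lower, the ranges of the groups did not overlap, beside 71.5% of all genes (35.9% higher and 35.6% lower). When libraries were rescaled to equal totals, 4 members were higher and 1 lower, beside 56.1% and 15% of all genes. The median log2 change of the 9 members was 0.13, beside 0.0028 over all genes.

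Fzd5, a receptor of Wnt signalling in gut and eye development and in Paneth cells, was lower with little spread among libraries. It lies at chr1:64730558-64737751 on the minus strand with 2 separate exon blocks. Its scaled counts were 1071, 1106 and 1195 in wild type and 544, 592 and 544 in Ctnnb1 tumours. Every tumour value was below every wild-type value. The log2 difference was -1.0 (SE 0.09, adjusted p = 6.6e-05, limma), and the call held under every alternative run. Under equal totals the difference was -0.51 (adjusted p = 8.15e-04, limma).

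The same gene was at 602, 597 and 530 in combined tumours. These 3 values also lay below all wild-type values and close to those of the Ctnnb1 tumours, with which they share the wild-type libraries in the comparison. The log2 difference from wild type was -0.96 (SE 0.09, adjusted p = 7.25e-05, limma), and -0.45 under equal totals (0.00178). Among epithelial genes, Epcam was also lower in both tumour groups, at 12570 to 16204 in wild type, 5965 to 8614 in Ctnnb1 tumours and 5355 to 8852 in combined tumours (log2 -0.98 and -1.01, adjusted p = 0.00368 and 0.00321, limma), though not called under equal totals (0.0676 and 0.0681). Krt8 was higher in both (1.07 and 1.41, adjusted p = 0.00754 and 0.002, limma). Cdh1 was higher in combined tumours (0.87, adjusted p = 0.00245, limma), and in both under equal totals (0.00177 and 1.4e-04). Of all genes, 56.1% and 57.3% were called higher under equal totals. Krt18 was called in neither tumour group with the deposited scaling. The part of epithelial cells in the Fzd5 values was not tested. A gene of uncertain coding status, Gm38058, shares 1512 bases with the whole span of Fzd5 on the other strand. Spans were compared and not exons, and no source used here says that counting used strand. Whether the 2 share counted bases, and whether their reads can be told apart, is not known.

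Fzd1 and Fzd2 are receptors that act together in closing the palate and the heart septum in mice. Fzd1 (chr5:4753839-4758035, minus strand, 1 exon) had scaled counts of 1505, 1806 and 1692 in wild type and 789, 609 and 976 in Ctnnb1 tumours. The groups did not overlap, and the log2 difference was -1.10 (SE 0.39, adjusted p = 0.0384, limma). That call was lost in 5 of the 6 fits that left out 1 library, namely any wild-type library or Ctnnb1 library 13 or 14, with adjusted p from 0.0699 to 0.112, and without a variance trend (0.0521).

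Fzd2 (chr11:102604396-102608058, plus strand, 1 exon) had 545, 497 and 503 scaled counts in wild-type prostate and 228, 251 and 218 in the Ctnnb1 tumours. Here too the groups did not overlap. The log2 difference was -1.15 (SE 0.32, adjusted p = 0.0153, limma). Rescaling all libraries to equal totals, which moved the median of all genes from 0.0028 to 0.49 and the share of calls that were higher from 49.4% to 78.9%, left Fzd1 at -0.61 (adjusted p = 0.185) and Fzd2 at -0.66 (0.0907), no longer called.

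Smooth muscle and nerve markers were also lower in Ctnnb1 tumours. All 8 smooth muscle markers (Myh11, Cnn1, Des, Actg2, Synpo2, Smtn, Lmod1 and Acta2) were lower, and they summed to 1374 to 2762 beside 120136 to 150062 in wild type. Of 7 fibroblast markers, only Dcn was lower, a share under the 29.6% of all genes, while Col1a1 (log2 0.36) and Lum (0.12) had differences above 0. The fibroblast sum was 17197 to 26902 beside 31063 to 36721. All 6 nerve and glia markers were lower, with sums of 281 to 382 beside 2326 to 2519. Of 7 macrophage markers, 6 were higher, with sums of 8699 to 18467 beside 4182 to 4454. None of the listed markers of these 4 cell types was at 0 in any library, and their part in the Fzd1 and Fzd2 values was not tested. The skeletal muscle sum varied widely inside both groups, at 153848, 44326 and 9733 in wild type and 70, 54 and 10303 in Ctnnb1 tumours. Of its 6 markers, 5 were called lower, and 2 were at 0 in Ctnnb1 libraries 13 and 14. Its part was not tested either. In whole tissue, fewer cells of a type and less RNA per cell cannot be told apart.

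Fzd6, which directs hair patterning and planar polarity in mouse skin, was higher. It lies at chr15:39006034-39038188 on the plus strand with 9 separate exon blocks. Its scaled counts were 1251, 1310 and 1415 in wild type, 1659, 1868 and 1873 in Ctnnb1 tumours and 1764, 1889 and 1492 in combined tumours. Both tumour groups lay wholly above wild type. The log2 differences were 0.44 (SE 0.10, adjusted p = 0.00615) and 0.37 (SE 0.10, adjusted p = 0.0144) in limma. The call for Ctnnb1 tumours held under every alternative, and that for combined tumours was lost without wild-type library 1 (0.0529). Under equal totals the differences were 0.93 and 0.88 (adjusted p = 6.49e-05 and 9.22e-05, limma), beside medians of 0.49 and 0.50 over all genes.

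The remaining members were not called in Ctnnb1 tumours. Fzd8, the close relative of Fzd5, had 288, 277 and 328 in wild-type prostate and 158, 251 and 126 in Ctnnb1 tumours, without overlap (log2 -0.79, adjusted p = 0.0932, limma). It was called without Ctnnb1 library 14 (0.0441). Fzd3, which guides axons and neural crest, was at 342, 315 and 317 against 441, 383 and 400, also without overlap (log2 0.33, adjusted p = 0.0938, limma). Both were called when only these 2 groups entered the fit, with adjusted p of 0.0339 for Fzd8 and 0.0314 for Fzd3.

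Fzd7, a receptor used by intestinal stem cells, held 1365, 1300 and 1328 in wild-type prostate and 1331, 1477 and 1561 in Ctnnb1 tumours, and these ranges overlapped (log2 0.13, adjusted p = 0.282, limma). Fzd4, the receptor through which Norrin shapes retinal vessels, was at 429, 287 and 298 against 328, 376 and 411 (log2 0.15, adjusted p = 0.517, limma). Fzd10 varied most inside a group, with 89, 78 and 53 in wild type but 148, 36 and 280 in Ctnnb1 tumours (log2 0.67, SE 0.85, adjusted p = 0.518, limma). Under equal totals Fzd3 (0.82, adjusted p = 0.00151), Fzd4 (0.64, 0.0153) and Fzd7 (0.62, 5.42e-04) were called higher. Over all genes the median log2 change was 0.49 under that scaling, and 56.1% were called higher.

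**Figure D2:**
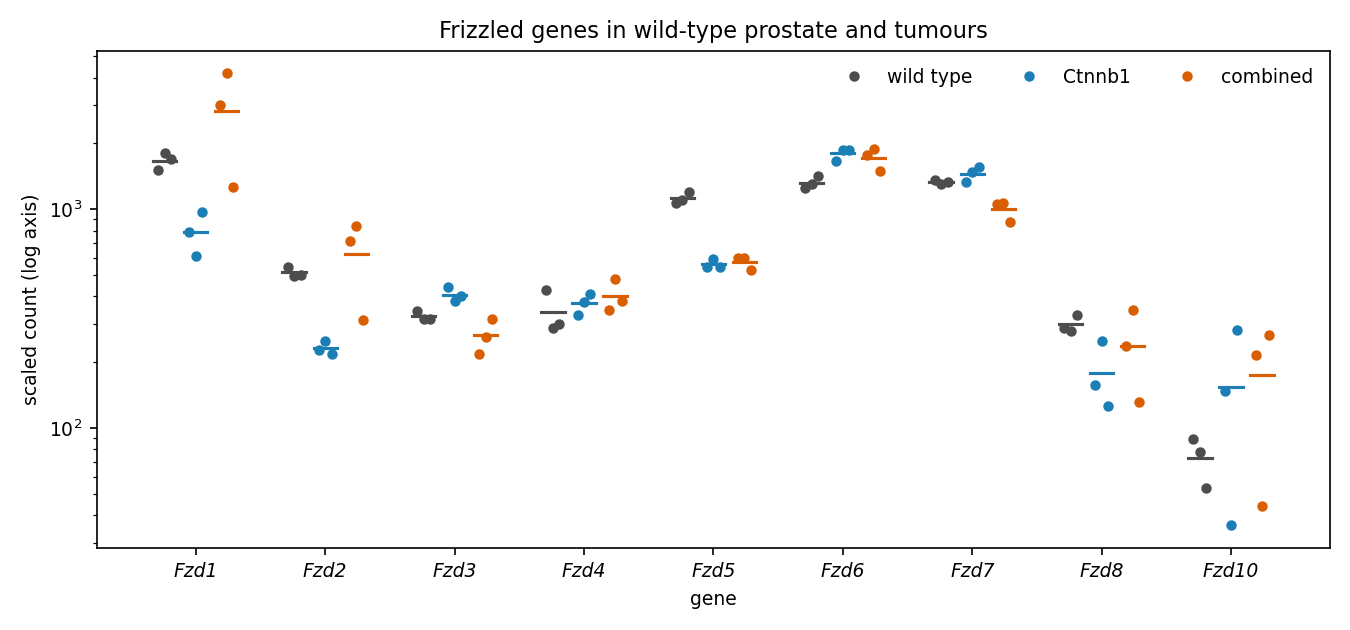
Points are the scaled counts of each listed Frizzled gene in single libraries on a log axis and bars are group means (n = 3 per group). Fzd5 was lower and Fzd6 higher in both tumour groups without overlap with wild type, while Fzd1 and Fzd2 in combined tumours ranged from below to above wild type.

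In combined tumours against wild type, 3 of 9 members were called, Fzd5 and Fzd7 lower and Fzd6 higher, beside 57.8% of all genes (28.3% higher and 29.5% lower). The same 3 were the members whose ranges did not overlap, beside 66.1% of all genes (32.1% higher and 34% lower). Under equal totals 3 members were higher and 1 lower, beside 57.3% and 12.6% of all genes. The median log2 change of the members was 0.15, beside -0.011 over all genes. This comparison uses the same wild-type libraries as the one above.

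Fzd7 (chr1:59482424-59486955, plus strand, 1 exon) was at 1056, 1066 and 877 in combined tumours, each below the wild-type values of 1365, 1300 and 1328. The log2 difference was -0.42 (SE 0.10, adjusted p = 0.00621, limma), but under equal totals, where the median of all genes stood at 0.50 and 81.9% of calls were higher instead of 48.9%, it was 0.10 (adjusted p = 0.39). The direction for Fzd7 thus depended on the scaling, and it lay below the median gene under both.

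Fzd1 and Fzd2 split the combined group. Fzd1 had 2988, 4182 and 1269 scaled counts in libraries 10, 11 and 12, so 2 libraries were above all wild-type values and 1 below (log2 0.60, SE 0.39, adjusted p = 0.217, limma). Fzd2 had 715, 838 and 312 in the same libraries (log2 0.15, SE 0.32, adjusted p = 0.704, limma). Without library 12, 6 of 9 members were called, adding Fzd1 (1.09, adjusted p = 0.00368), Fzd2 (0.59, 0.00433) and Fzd3 (-0.44, 0.0208). In that fit 8175 of 13905 genes were called, with 29% of all genes higher and 29.8% lower. The fibroblast marker sum was 270259, 564399 and 36213 in libraries 10, 11 and 12, and the smooth muscle sum 12115, 15085 and 4571. The macrophage sum was 42926, 42793 and 12128 and the endothelial sum 9450, 10506 and 5534. Library 12 was lowest for these 4 lists as it was for both genes. In that group all 7 macrophage markers, 5 of 7 fibroblast markers and 4 of 7 endothelial markers were higher than in wild type and 8 of 8 smooth muscle markers were lower. No marker of these 4 lists was at 0, and their part in the Fzd1 and Fzd2 values was not tested. The skeletal muscle sum was 1219, 123 and 97 in libraries 10, 11 and 12, with 2 markers at 0 in library 12. All 6 skeletal muscle markers were lower than in wild type, and their part was not tested.

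The other members were not called in combined tumours. Fzd3 was at 219, 260 and 317 (log2 -0.31, adjusted p = 0.115, limma) and Fzd8 at 238, 345 and 132 (log2 -0.42, adjusted p = 0.348, limma), and both signs turned under equal totals. Fzd4 was at 346, 482 and 383 (log2 0.27, adjusted p = 0.272, limma), and under equal totals it was called higher (0.78, 0.00635), as was Fzd1 (1.11, 0.0294). Over all genes the median log2 change was 0.50 under that scaling, and 57.3% were called higher. Fzd10 was at 215, 44 and 267 (log2 0.92, adjusted p = 0.378, limma). Its low library, 11, was also the lowest for the 4 basal epithelial markers Krt5, Krt14, Krt15 and Trp63, with a sum of 946 beside 11555 in library 10 and 3169 in library 12. In Ctnnb1 tumours the Fzd10 value of 36 was in library 14, where the same sum was 784, beside 6446 in library 13 and 4958 in library 15. Wild type held basal sums of 11237, 9919 and 5583 with Fzd10 at 89, 78 and 53. It thus had less Fzd10 than combined library 12 at higher basal sums. No basal marker was at 0, and the part of these cells was not tested.

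**Figure D3:**
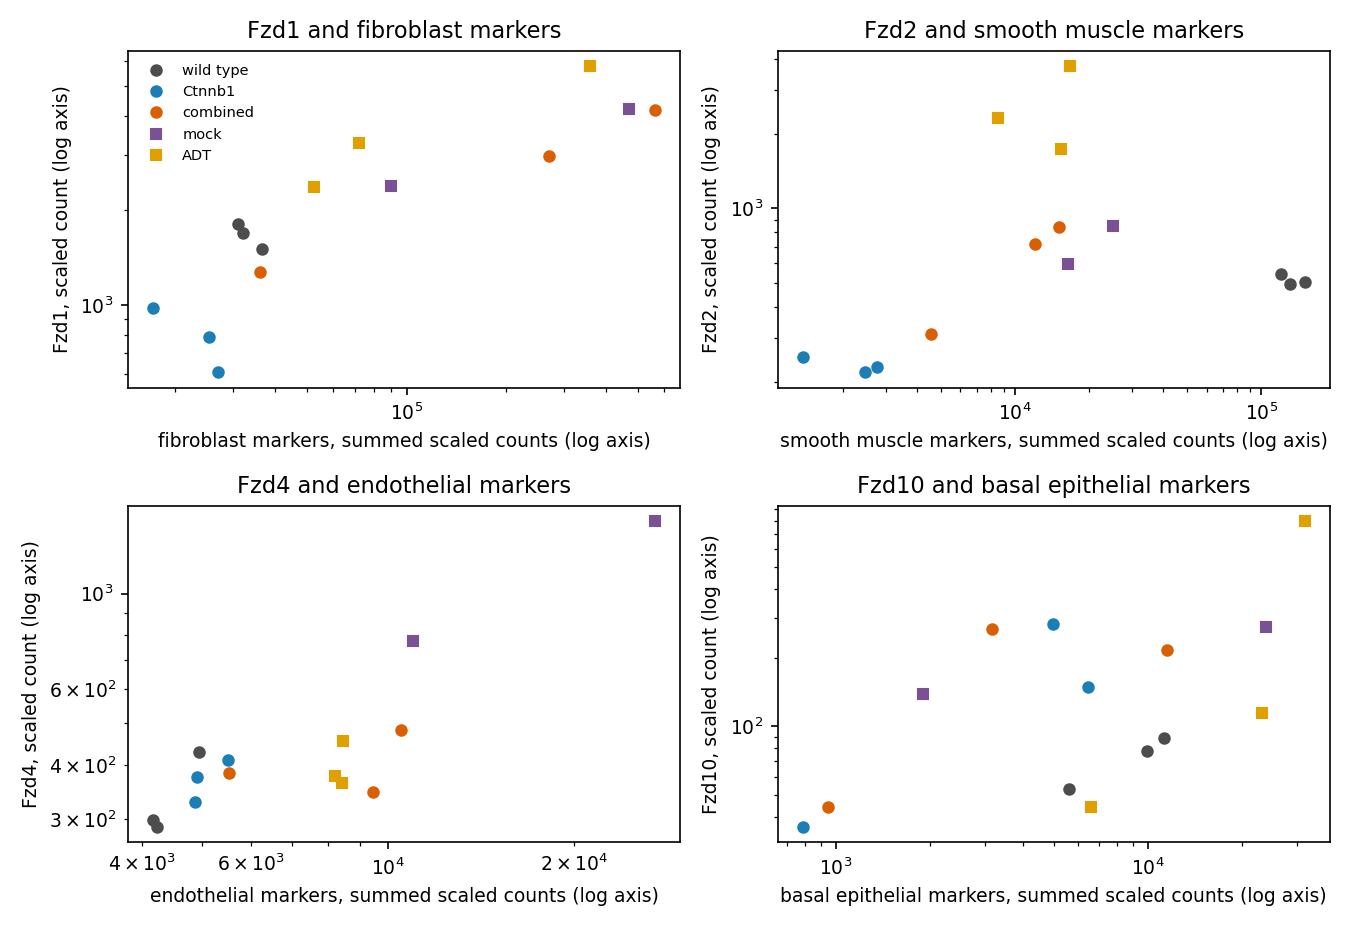
Each panel plots a Frizzled gene against the summed scaled counts of a marker list, 1 point per library on log axes; circles (genotype table) and squares (inducible model) come from separately scaled sets and are read each among themselves. The 2 combined libraries with the highest Fzd1 had fibroblast sums of 270259 and 564399. The Ctnnb1 libraries had the lowest Fzd2 and the lowest smooth muscle sums. Combined libraries 10 and 11 had Fzd2 above wild type at smooth muscle sums of 12115 and 15085, beside 120136 to 150062 in wild type.

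ADT against mock asks which receptors differ when androgen is withdrawn from tumours that all carry activated β-catenin. No member was called in limma, where 0.00859% of 23289 genes passed, and 4 of 10 members had an unadjusted p under 0.05, as did 16.2% of all genes. In 6 members, 1 higher and 5 lower, the ADT and mock values did not overlap, beside 33.2% of all genes (16.4% higher and 16.8% lower). The median log2 difference of the 10 members was -0.59, beside -0.021 over all genes. The mock group has only 2 libraries.

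Fzd3 showed the widest gap, with 263 and 150 scaled counts in mock and 32, 39 and 42 in ADT. All 3 ADT values were far below both mock values. The log2 difference was -2.38 (SE 0.40, unadjusted p = 0.00236, adjusted p = 0.128, limma). A pseudogene, Gm9086, shares 613 bases with the whole span of Fzd3 on the other strand. Spans were compared and not exons, so whether the 2 share counted bases is not known.

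Fzd5 was at 644 and 606 in mock and 199, 252 and 180 in ADT, again apart and with little spread (log2 -1.58, SE 0.23, unadjusted p = 0.00122, adjusted p = 0.115, limma). Fzd4 was at 1476 and 776 in mock and 456, 377 and 363 in ADT (log2 -1.43, SE 0.33, unadjusted p = 0.00813, adjusted p = 0.181, limma). The endothelial marker sum followed the same layout, at 27028 and 10964 in mock and 8474, 8217 and 8442 in ADT, with 3 of 7 markers wholly lower and none at 0. Of the epithelial genes Krt8, Krt18, Epcam and Cdh1, all but Krt18 lay wholly lower in ADT and none was called. Epcam was at 10052 and 10302 in mock and 2661, 4989 and 1947 in ADT. The part of either cell type in these values was not tested.

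Fzd2 went the other way. It was at 852 and 594 in mock and 2312, 1742 and 3753 in ADT, so every ADT library was above both mock libraries. The log2 difference was 1.80 (SE 0.38, unadjusted p = 0.00623, adjusted p = 0.167, limma). Its share of the family sum per kilobase was 9.14% ± 1.03 (SD, n = 2) in mock and 27.2% ± 10.7 (SD, n = 3) in ADT, and its level of 710 ± 283 per kilobase there stood next to Fzd1 at 908 ± 420 and Fzd6 at 581 ± 215. The fibroblast marker sum was 469575 and 89854 in mock and 357828, 72077 and 52479 in ADT, and the smooth muscle sum 24899 and 16492 against 8561, 15401 and 16810. The skeletal muscle sum was 10015 and 32922 in mock and 2003, 133 and 51082 in ADT, where library 3 was highest, as it was for Fzd2, and library 2 had 1 of the 6 markers at 0. The part of these cells in the Fzd2 values was not tested.

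Fzd7 was at 1315 and 1215 in mock and 1183, 697 and 829 in ADT (log2 -0.52, adjusted p = 0.415, limma). Fzd8 was at 253 and 127 against 84, 101 and 122 (log2 -0.82, adjusted p = 0.415, limma). In both genes the highest ADT value sat just under the lowest mock value.

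Fzd1 and Fzd6 overlapped between treatments. Fzd1 was at 4229 and 2393 in mock and 5778, 3277 and 2379 in ADT (log2 0.16, adjusted p = 0.892, limma), and Fzd6 at 1945 and 2892 against 1610, 3472 and 3319 (log2 0.16, adjusted p = 0.892, limma). Fzd10 was at 138 and 272 against 44, 797 and 114 (log2 -0.28, SE 1.31, adjusted p = 0.931, limma). Its highest library, ADT 2, also had the highest basal marker sum of the ADT group, 31834 beside 6563 and 23200. In mock the basal sum was 1907 and 23893, and the mock library with 1907 had more Fzd10 than ADT libraries 1 and 3. The part of basal cells was not tested. Fzd9, a receptor known from bone and B cells, had the lowest scaled counts of the family, at 10 and 17 in mock and 15, 4 and 8 in ADT (log2 -0.65, adjusted p = 0.678, limma).

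**Figure D4:**
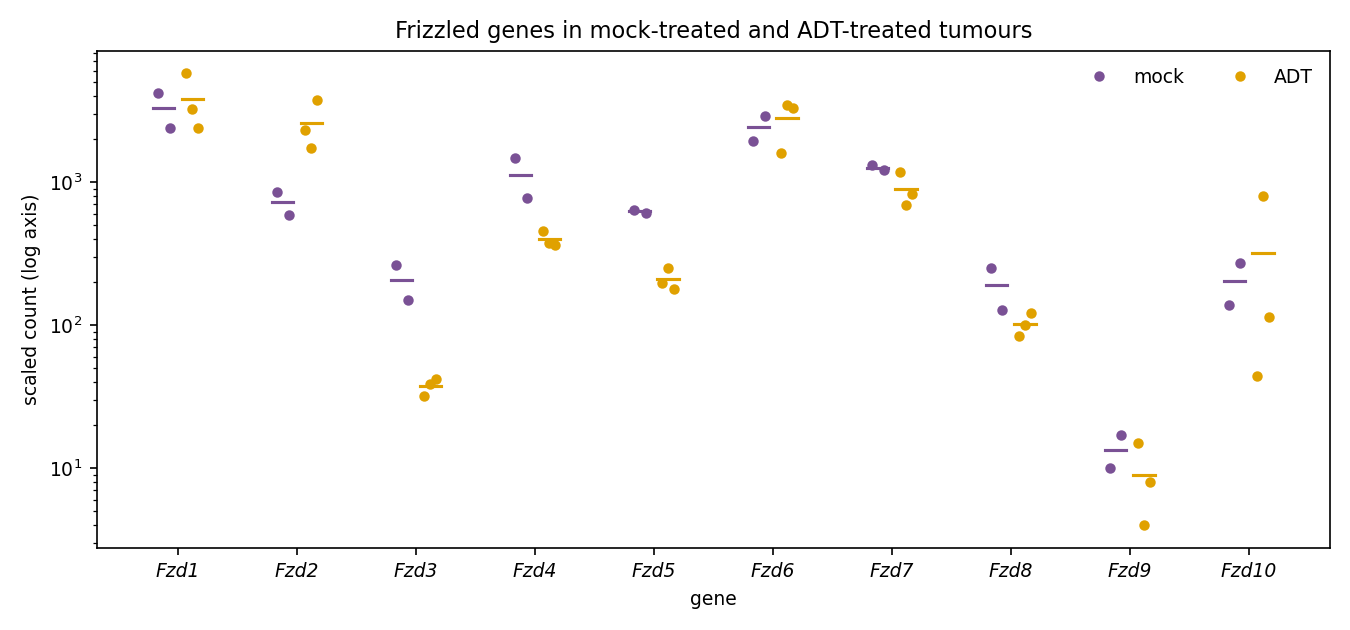
Points are scaled counts of the 10 Frizzled genes in single mock (n = 2) and ADT (n = 3) libraries on a log axis, and bars are group means. Fzd2 lay higher and Fzd3, Fzd4 and Fzd5 lower in all 3 ADT libraries, while Fzd1, Fzd6, Fzd9 and Fzd10 overlapped.

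**Figure D5:**
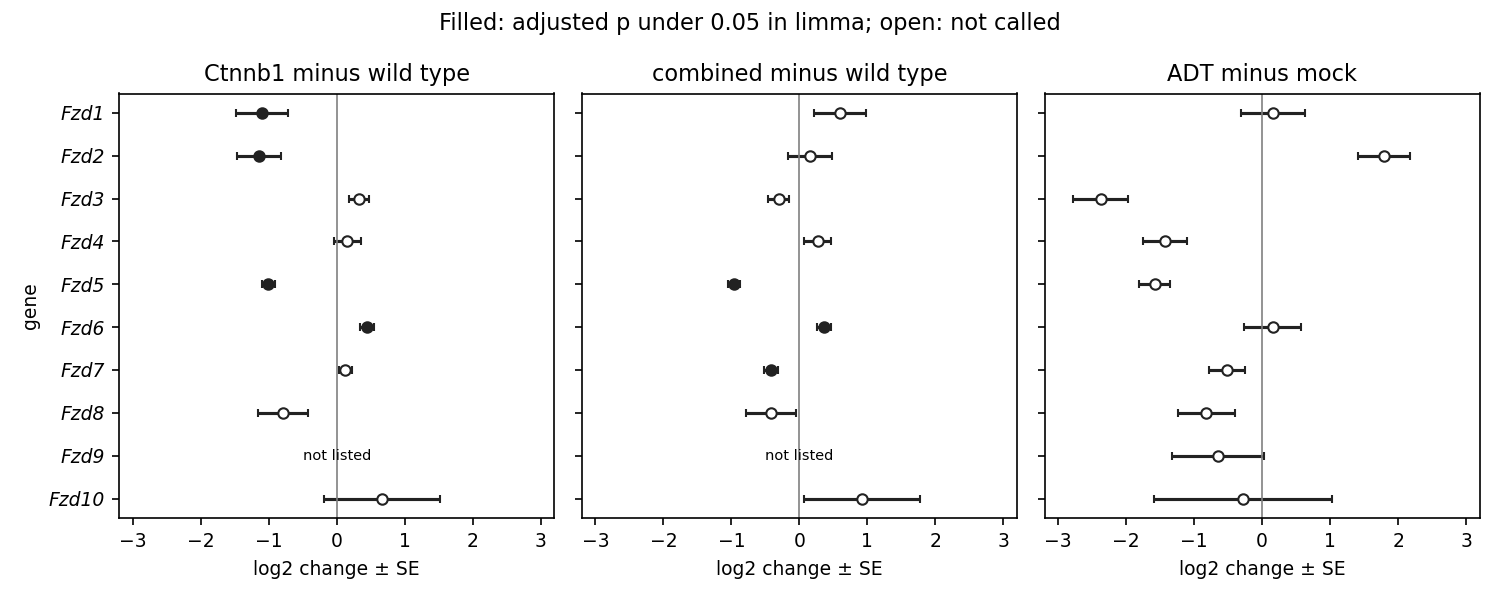
Log2 differences with their standard errors (bars) from limma are given for each member in the 3 comparisons, with filled points at an adjusted p under 0.05. Fzd5 was at -1.0, -0.96 and -1.58, and no point is filled in the ADT panel.

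The partners of the receptors were followed as lists. For each list below, the shares of all genes were 28.9% higher and 29.6% lower in Ctnnb1 tumours. In combined tumours they were 28.3% and 29.5%. Among 6 co-receptors and other Wnt receptors, 1 was higher in Ctnnb1 tumours and 2 in combined tumours, and 0 were lower. Under equal totals 3 and 5 were higher and 0 lower, beside 56.1% and 57.3% of all genes higher. Lrp5, which pairs with Frizzled to pass on the β-catenin signal, had 3333, 3143 and 3032 scaled counts in wild-type prostate, 5319, 5595 and 5012 in Ctnnb1 tumours and 4245, 4875 and 4329 in combined tumours (log2 0.74 and 0.50, adjusted p = 1.14e-04 and 7.55e-04, limma). Ryk, a Wnt receptor of the atypical kinase type, was higher in combined tumours (log2 0.21, adjusted p = 0.0358, limma).

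The genes that set receptor turnover moved in opposite directions. Of 8 listed, 4 were higher and 3 lower in Ctnnb1 tumours, beside 28.9% and 29.6% of all genes. In combined tumours 4 were higher and 2 lower, beside 28.3% and 29.5%. Under equal totals the counts were 4 higher and 2 lower, and 6 higher and 2 lower, to be read against the shares of all genes given above for that scaling. Znrf3, a ligase that removes Frizzled from the surface, had 1115, 1249 and 1141 in wild-type prostate, 5661, 3918 and 6065 in Ctnnb1 tumours and 3823, 2426 and 5637 in combined tumours. Its relative Rnf43 was at 1273, 1358 and 1446, then 5177, 3855 and 4873, then 3745, 3726 and 7074. Every tumour value of both ligases was above every wild-type value, with log2 differences of 2.13 and 1.68 for Znrf3 (adjusted p = 4.11e-04 and 0.00136) and 1.76 and 1.77 for Rnf43 (4.44e-04 and 4.36e-04) in limma.

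Lgr5, an R-spondin receptor and stem cell marker, was higher by 1.91 and 1.56 on the log2 scale (adjusted p = 2.36e-04 and 6.16e-04, limma). Rspo2, an R-spondin that shields Frizzled from the ligases, had 137, 114 and 215 in wild-type prostate, 0 in all 3 Ctnnb1 libraries and 1, 2 and 0 in combined tumours. Rspo3 was at 580, 648 and 942, then 16, 10 and 16, then 224, 232 and 37. Both ligands were called lower in both comparisons (adjusted p = 5.05e-05 and 8.11e-05 for Rspo2, 2.23e-04 and 0.0112 for Rspo3, limma). The smooth muscle markers given above were lower in the same libraries, and their part was not tested.

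Secreted Frizzled-related proteins, which carry a Frizzled-type domain and bind Wnt outside the cell, are known as Wnt antagonists. In combined tumours 4 of 5 were higher and 1 lower, beside 28.3% and 29.5% of all genes. In Ctnnb1 tumours 0 were higher and 1 was lower, beside 28.9% and 29.6%. Sfrp1 had 672, 454 and 714 in wild-type prostate and 21384, 21984 and 3278 in combined tumours (log2 4.26, adjusted p = 0.00114, limma), with its lowest value again in library 12. Frzb (3.49, 0.00224), Sfrp4 (3.34, 0.00479) and Sfrp2 (2.55, 0.0289) were also higher there. In libraries 10, 11 and 12, Frzb was at 2097, 1044 and 387 and Sfrp2 at 2179, 23283 and 1789, both lowest in library 12. Sfrp4, at 1068, 239 and 504, was lowest in library 11, which had the highest fibroblast sum. The part of fibroblasts in these values was not tested. Sfrp5 was lower in both groups, at -2.77 (adjusted p = 8.97e-04) and -1.51 (0.0166) in limma, the latter no longer called under equal totals (0.0697).

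Of 10 listed Dishevelled and planar polarity genes, 4 were higher and 0 lower in Ctnnb1 tumours, and 4 were higher and 2 lower in combined tumours. Under equal totals 8 were higher and 0 lower in each, beside 56.1% and 57.3% of all genes higher and 15% and 12.6% lower, and the 2 that had been lower, Dvl2 and Scrib, turned. The 4 higher with the deposited scaling were the same in both: Vangl1, Vangl2, Celsr2 and Prickle1, core parts of the polarity system in which Fzd3 and Fzd6 act. Vangl1 had 576, 568 and 574 in wild-type prostate, 2140, 1786 and 2015 in Ctnnb1 tumours and 1464, 1522 and 2094 in combined tumours (log2 1.78 and 1.54, adjusted p = 3.67e-05 and 5.95e-05, limma).

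Among 3 listed Fzd4 partners, Tspan12, which strengthens Norrin signalling through Fzd4, was higher in both groups (log2 1.64 and 1.35, adjusted p = 6.15e-05 and 1.33e-04, limma). Reck, which presents Wnt7 ligands with Adgra2, was lower in both (-3.07 and -1.32, adjusted p = 8.9e-04 and 0.0414, limma), though not called in combined tumours under equal totals (0.153), and Adgra2 was lower in Ctnnb1 tumours (-1.56, 0.013). Fzd4 itself was called in neither. Of 4 PDZ and retention proteins, Magi3 (1.79 and 1.52) and Gipc1 (0.81 and 0.60) were higher in both groups, and Shisa2, which holds immature Frizzled in the endoplasmic reticulum, was lower in Ctnnb1 tumours (-3.57, adjusted p = 0.0122, limma). Of 10 listed Wnt ligands, 6 were higher and 1 lower in Ctnnb1 tumours, beside 28.9% and 29.6% of all genes. In combined tumours 7 were higher and 1 lower, beside 28.3% and 29.5%. Under equal totals 8 and 9 were higher and none lower, beside 56.1% and 57.3% of all genes higher.

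Under ADT no gene of these lists was called. The values did not overlap in 8 higher and 1 lower of 17 Wnt ligands, 6 higher and 1 lower of 9 turnover genes, and 3 lower of 5 secreted Frizzled-related proteins. The same held for 1 higher and 2 lower of 6 co-receptors, 4 higher and 1 lower of 11 Dishevelled and polarity genes, 2 higher of 5 PDZ and retention proteins and 0 of 4 Fzd4 partners. Of all genes, 16.4% were wholly higher and 16.8% wholly lower. The genes named here were picked among those without overlap, and other such genes had smaller p than some of them. Of these others, Shisa2 was at 187 and 247 in mock and 801, 776 and 664 in ADT (adjusted p = 0.0993, limma). Frzb was at 2070 and 1343 against 460, 496 and 307 (adjusted p = 0.124, limma). The polarity gene Celsr2 was wholly lower, at 1394 and 1876 against 385, 1317 and 728. Wnt5a, a ligand of polarity signalling for which Fzd2 is a receptor, was at 3866 and 7449 in mock and 30100, 18394 and 17878 in ADT (log2 2.00, unadjusted p = 0.00429, adjusted p = 0.151, limma). Ptk7, a co-receptor in planar polarity, was at 2008 and 1534 against 9988, 5458 and 6356 (log2 2.00, unadjusted p = 0.00162, adjusted p = 0.122, limma). Prickle2, another polarity gene, was at 458 and 200 against 2129, 4873 and 7663 (log2 3.82, unadjusted p = 0.00276, adjusted p = 0.131, limma). Lrp6, the co-receptor that pairs with Frizzled in the β-catenin branch, was at 5130 and 4659 against 3134, 3401 and 2839 (log2 -0.65, unadjusted p = 0.00511, adjusted p = 0.157, limma).

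Genes with the profile nearest to a called Frizzled gene were found over the 9 genotype libraries, by the root mean square difference between log2 profiles centred on each gene's mean, among 13048 genes measured in the same libraries. Nearest to Fzd5 were Dym (0.063), Apoa1bp (0.068) and Agpat3 (0.075), where Fzd5 itself varied by 0.47. Nearest to Fzd2, which varied by 0.68, were Gucy1b3 and Ehd2 (0.11 each) and Epas1 (0.12). Nearest to Fzd1, which varied by 0.83, were Sertad4 (0.19), Ehd3 (0.19) and Sh3pxd2a (0.20). Nearest to Fzd6, which varied by 0.22, were Secisbp2l (0.072), Dek (0.073) and Ipo11 (0.074), and nearest to Fzd7, at 0.25, were Wdr11 (0.085), Dennd1a (0.10) and Hook3 (0.10).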

How the data were processed

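Per the labels' protocols, total RNA was sequenced as paired reads. Per the submitters' processing notes, the tools were DESeq2 1.14.1, R 3.2.3, HTSeq 0.6.0, Bowtie2 2.2.6.0, TopHat2 2.1.0 and FastQC 0.11.4, with GRCm38.p3, and roles and settings are not given in the sources used here, nor how reads matching several Frizzled genes were counted. The deposited values are scores: gene counts that the authors scaled for library size and rounded to whole numbers, as judged from the values, so no count model was run and read depth per gene is not known. The 9 genotype libraries and the 5 inducible ones were scaled apart and were fitted apart. Of 15195 features, 631 without an Entrez number, those of 118 repeated numbers and 389 repeats were left out. In the inducible table, 3668 repeats of 42847 features were left out.

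Values were taken as log2(value + 1), which understates the change of low genes, for genes at 1 or more in at least 3 genotype or 2 inducible libraries. They were tested with limma 3.58.1 in R 4.3.3 (two-sided, variance trend, Benjamini-Hochberg over all genes, called at adjusted p under 0.05, SE moderated), after the script was tested on simulated data. Exon lengths and coordinates came from GENCODE M21 (GRCm38) and promoter windows from RefSeq on GRCm38.p6. Overlap means overlap of the groups' ranges. Python 3.11.15, pandas 2.3.3 and matplotlib 3.10.9 made tables and figures. Members, lists and tests were chosen with earlier results of these data known. Named are all Frizzled genes and Ctnnb1, marker genes, and the 3 genes nearest in profile. Also named are, from each list, up to 4 members with the smallest p among those called. Under ADT some members without overlap are named, not always those with the smallest p. Some markers and the sums that hold them are not reported. A further genotype group and comparisons resting on the additional engineered change alone are not reported here. Alternatives changed the pseudocount, filter, scaling, variance prior, libraries and groups fitted.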

Additional observations from a re-analysis of the deposited data

How the results depend on the processing

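The number of members called stayed within 1.5 times of the main count under every alternative but 1: 3 to 4 without 1 library in Ctnnb1 tumours and 2 to 6 in combined tumours, where 6 came without combined library 12. In those fits 6737 to 7373 and 6697 to 8175 of all genes were called. The members behind a steady count changed. Under equal totals they were Fzd3, Fzd4, Fzd5, Fzd6 and Fzd7 in Ctnnb1 tumours, and Fzd1, Fzd4, Fzd5 and Fzd6 in combined tumours. Under ADT the number of members called was 0 in every fit, the replicate block included, while the count over all genes ran from 0 to 172. Of the groups compared with each other, only mock and ADT share replicate numbers, 1 and 2, and their deviations correlated by 0.22 and 0.12 over 23289 genes, too few pairs to show that the numbers pair samples. With the replicate block, Fzd6 moved from 0.16 to -0.0045 under ADT. Equal totals turned the sign in combined tumours for Fzd3 (0.21), Fzd7 (0.10) and Fzd8 (0.092), and the cause was not tested. Without 1 library the log2 change of Fzd2 in combined tumours ran from -0.12 to 0.59, and under ADT that of Fzd1 ran from -0.25 to 0.57, of Fzd6 from -0.13 to 0.52 and of Fzd10 from -1.44 to 0.64. Read counts behind each value were not used, so depth limits cannot be stated per gene, and values under about 20, as for Fzd9, rest on few reads.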
